A study of Schizosaccharomyces pombe with 6 samples.

Results

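The genes of oxidative phosphorylation were examined across 6 RNA-seq libraries of the fission yeast *Schizosaccharomyces pombe*, 1 library for each condition. Members were taken by name: every gene of the mitochondrial genome with an identifier beginning SPMIT., and every nuclear gene whose name begins with *cox*, *atp*, *qcr*, *sdh*, *cyc*, *cyt* or *rip* followed by a digit. This gave 59 of the 7008 genes listed, 11 mitochondrially encoded and 48 nuclear encoded. Of the nuclear members, 35 encode subunits of the respiratory complexes, cytochrome *c* or ATP synthase. The other 13 carry such a name and were grouped as assembly genes, among them *cox24*, which RefSeq lists as a protein of the mitochondrial ribosome. Wild type, *mas5Δ* and *ssa2Δ* cells were grown in rich medium at 24°C, and a further wild type sample was kept at 36°C for its last 15 minutes. Mas5 is a chaperone of the Hsp40 family and Ssa2 one of the Hsp70 family, and each deletion strain lacks that gene in all of its cells. Wild type and *nmt1:hsf1* cells were grown at 24°C in minimal medium without thiamine. In *nmt1:hsf1* the promoter of *hsf1*, which encodes the heat shock transcription factor, was exchanged at its own locus for the *nmt1* promoter, which is active when thiamine is absent, and thiamine had been removed for 20 hours. The series sets heat stress beside the loss of these chaperones and beside a higher expression of Hsf1.

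Oxidative phosphorylation depends on 2 genomes. Electrons reach ubiquinone from NADH dehydrogenases and from succinate dehydrogenase (complex II), pass through the cytochrome *bc1* complex (complex III) and cytochrome *c* to cytochrome *c* oxidase (complex IV), and the proton gradient built on the way drives ATP synthase. Fission yeast lacks the proton pumping complex I and oxidizes NADH with simpler dehydrogenases. The catalytic core of complex IV, cytochrome *b* of complex III and part of the membrane sector of ATP synthase are made from mitochondrial mRNAs, while all other subunits, complex II and cytochrome *c* are made from nuclear mRNAs and imported. Mitochondrial transcripts of fission yeast are not given the long poly(A) tails of nuclear mRNAs. The libraries were made after selection on poly-T beads, so a mitochondrial RNA was counted only as far as it came through that step.

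Values were deposited as FPKM, fragment counts scaled to transcript length and to library size, in 4 tables that each set 1 condition beside its wild type library and were normalized separately. The wild type library from rich medium is the reference of 3 tables, where its values differed by a constant factor of 1.13 (*mas5Δ*) or 1.02 (*ssa2Δ*) from those in the heat stress table, so the 3 comparisons share that library. Its values are quoted below on the scale of the heat stress table. Each ratio was taken within its own table, except where wild type cells in minimal medium are named as the reference for cells in rich medium. With 1 library per condition there is no replicate error and no test. A gene is described as past 2-fold when its ratio is above 2 or below its inverse, and each count is given beside the percentage of all genes with a ratio that lay past 2-fold in the same direction. In the libraries labelled *mas5Δ*, *ssa2Δ* and *nmt1:hsf1* the log2 ratios of *mas5*, *ssa2* and *hsf1* themselves were -3.69, -5.75 and 3.30. No read depth is given with the values, so no counting error can be attached to low ones.

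All 11 mitochondrial genes were assigned a counterpart in RefSeq (build ASM294v3). Besides *cox1*, *cox2*, *cox3*, *cob1*, *atp6*, *atp8* and *atp9* these are SPMIT.02 and SPMIT.03, reading frames within introns of *cox1*, SPMIT.06, a reading frame within the intron of *cob1*, and SPMIT.08, which RefSeq names *rps3*, a protein of the mitochondrial ribosome. The reading frames of the introns lie inside the loci of their host genes, and reads of a host precursor cannot be told apart from their own. In the coding sequences the share of A and T ranged from 61.8% in *atp9* to 81.0% in *atp8*, with a median of 70.5%, against a median of 58.5% (50.9% to 64.7%) in the 48 nuclear members. The longest run of A within a coding sequence was 9 bases for the mitochondrial genes, in SPMIT.02, and 8 bases for the nuclear members, with a median of 5 in both. The coding sequence of *atp9*, the subunit of the ATP synthase ring and the mitochondrial mRNA with the highest value in each of the 6 libraries, is shown because it also had the highest ratio in *ssa2Δ* cells. It lies on the plus strand at chrMT:17808-18032 and is intronless, and nothing is marked by capitals:
atp9: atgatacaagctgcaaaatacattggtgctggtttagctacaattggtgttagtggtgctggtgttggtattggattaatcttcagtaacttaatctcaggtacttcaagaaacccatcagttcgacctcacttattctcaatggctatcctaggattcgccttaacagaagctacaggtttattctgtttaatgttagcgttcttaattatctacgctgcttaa

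Mitochondrial mRNAs made up little of the wild type libraries and much more of the *ssa2Δ* library. In wild type cells in rich medium the 11 mRNAs summed to 6.75 FPKM, and the 48 nuclear members summed to 1817 times as much. The sum was 22.4 FPKM after the shift to 36°C, 31.1 in *mas5Δ* cells and 408 in *ssa2Δ* cells, and the nuclear sum was then 636, 491 and 30.4 times as large. In minimal medium the mitochondrial sums were 24.0 FPKM in wild type cells and 26.5 in *nmt1:hsf1* cells. The median rank of the detected mitochondrial mRNAs among all genes above 0 was at percentile 3.30 in wild type cells in rich medium and at percentile 47.2 in *ssa2Δ* cells.

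**Figure D1:**
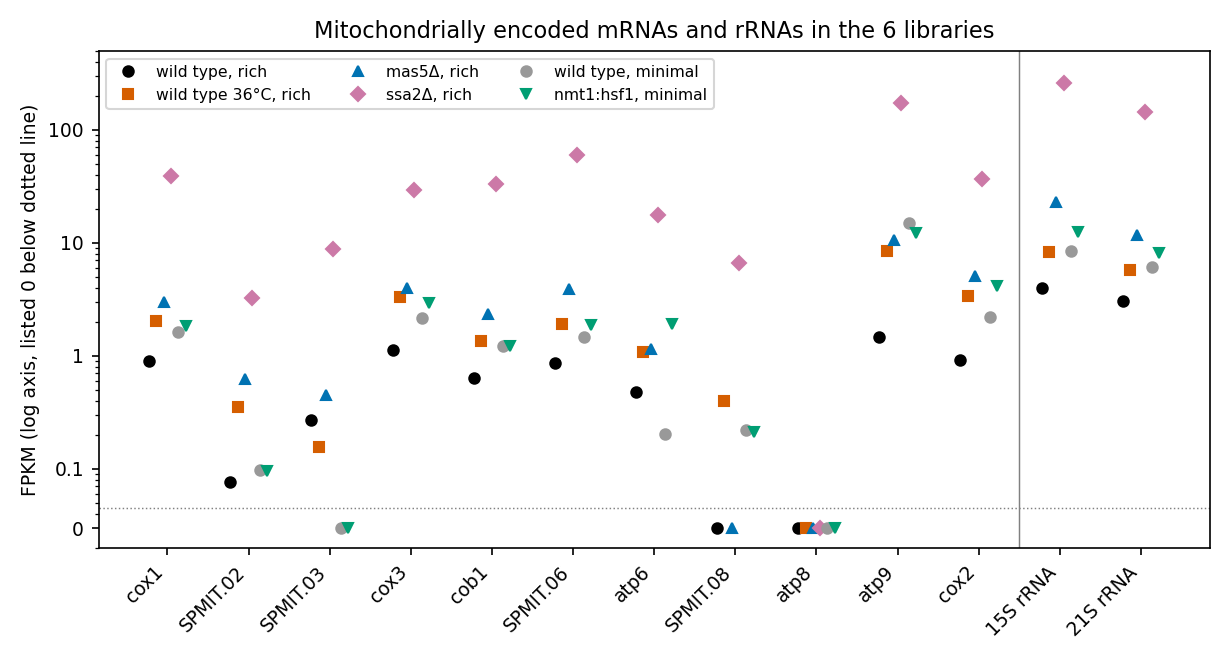
FPKM (log axis) of the 11 mitochondrially encoded mRNAs in genome order and of the mitochondrial rRNAs, 1 point per library, with genes listed at 0 drawn below the dotted line. The *ssa2Δ* point lies above all others for each RNA except *atp8*, which is listed at 0 in all 6 libraries.

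The mRNAs of complex IV encode its catalytic core. *cox1* (SPMIT.01), the subunit that reduces oxygen, stood at 0.909 FPKM in wild type cells in rich medium, 2.03 after heat stress, 3.03 in *mas5Δ*, 38.8 in *ssa2Δ*, 1.63 in wild type cells in minimal medium and 1.85 in *nmt1:hsf1*. *cox2* (SPMIT.11), which receives electrons from cytochrome *c*, stood at 0.919, 3.40, 5.05, 36.6, 2.23 and 4.12 FPKM in the same order. *cox3* (SPMIT.04), the third core subunit, stood at 1.12, 3.29, 4.00, 29.2, 2.15 and 2.96 FPKM. All 3 were lowest in wild type cells in rich medium and highest in *ssa2Δ* cells. Their log2 ratios were 1.16, 1.89 and 1.55 in heat stress, 1.56, 2.29 and 1.66 in *mas5Δ*, 5.39, 5.29 and 4.68 in *ssa2Δ*, and 0.18, 0.89 and 0.46 in *nmt1:hsf1*, for *cox1*, *cox2* and *cox3*.

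*cob1* (SPMIT.05) encodes cytochrome *b*, the only mitochondrial product of complex III. It stood at 0.638 FPKM in wild type cells in rich medium, 1.36 after heat stress, 2.34 in *mas5Δ*, 33.4 in *ssa2Δ*, 1.22 in wild type cells in minimal medium and 1.24 in *nmt1:hsf1*. Its log2 ratios were 1.09 in heat stress, 1.71 in *mas5Δ*, 5.69 in *ssa2Δ* and 0.02 in *nmt1:hsf1*. The reading frame within its intron, SPMIT.06, had log2 ratios of 1.13, 1.98, 6.09 and 0.36 and reached 59.97 FPKM in *ssa2Δ* cells, above *cob1* itself. The reading frames within the introns of *cox1* were lower than *cox1* in each library. SPMIT.02 went from 0.0768 FPKM in wild type cells in rich medium to 3.24 in *ssa2Δ* cells, and SPMIT.03 from 0.274 to 8.76. SPMIT.03 was the only mitochondrial gene with a lower value after heat stress (log2 ratio -0.80), and it was listed at 0 in both libraries from minimal medium.

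The mitochondrial mRNAs of ATP synthase encode parts of its membrane sector. *atp9* (SPMIT.10) stood at 1.46 FPKM in wild type cells in rich medium, 8.48 after heat stress, 10.5 in *mas5Δ*, 174 in *ssa2Δ*, 14.8 in wild type cells in minimal medium and 12.3 in *nmt1:hsf1*. Among the mitochondrial mRNAs it had the widest gap between the wild type libraries, whose tables were normalized separately. Its log2 ratios were 2.54 in heat stress, 2.68 in *mas5Δ*, 6.87 in *ssa2Δ* and -0.27 in *nmt1:hsf1*. *atp6* (SPMIT.07), which forms the proton path beside the ring, stood at 0.479, 1.09, 1.16, 17.6, 0.205 and 1.92 FPKM in the same order of libraries. Its log2 ratio of 3.22 in *nmt1:hsf1* was the only mitochondrial ratio past 2-fold in that comparison and rests on its lowest value, 0.205 FPKM. *atp8* (SPMIT.09) was listed at 0 in all 6 libraries. Its coding sequence of 147 bases is the shortest among the members. Of 275 genes alone in a locus under 200 bases, 184 were listed at 0 in all columns, against 41 of 1986 genes alone in a locus of 300 bases or more, so no level can be read for it. SPMIT.08 was listed at 0 in wild type cells in rich medium and in *mas5Δ* cells, and stood at 6.62 FPKM in *ssa2Δ* cells and 0.398, 0.221 and 0.214 FPKM after heat stress, in wild type cells in minimal medium and in *nmt1:hsf1*.

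A ratio could be formed for 9 of the 11 genes in each comparison, all but *atp8* and SPMIT.08, or *atp8* and SPMIT.03 in *nmt1:hsf1*. In *ssa2Δ* cells all 9 were past 2-fold up, from 25.6-fold to 117-fold, with a median log2 ratio of 5.38 (41.6-fold). The median over all genes was 0.05, and 10.9% of the genes with a ratio were past 2-fold up. In *mas5Δ* cells 8 of 9 were past 2-fold up, where 7.25% of all genes were, and the median log2 ratio was 1.71. After heat stress 8 of 9 were past 2-fold up, where 14.1% of all genes were, and the median log2 ratio was 1.19. In *nmt1:hsf1* cells 1 of 9 was past 2-fold up, where 27.1% of all genes were, and the median log2 ratio was 0.18 beside 0.09 over all genes. In a bulk library, higher levels in every cell and very high levels in some cells cannot be told apart. Cuffdiff, the program behind the values, marked 5 of the 11 mitochondrial genes as having too few reads for its own test in heat stress, in *mas5Δ* and in *nmt1:hsf1*, and 1, *atp8*, in *ssa2Δ*.

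The size of the 2 smaller increases depended on the reference that was used. Every mitochondrial subunit mRNA above 0 except *atp6* was higher in wild type cells in minimal medium than in wild type cells in rich medium. Against the minimal medium library, an alternative chosen after seeing the data, the median log2 ratio was 4.78 in *ssa2Δ*, 1.07 in *mas5Δ* and 0.61 after heat stress. For *atp9* the log2 ratios were then 3.55, -0.49 and -0.81, so its direction turned in *mas5Δ* and in heat stress. These ratios cross tables that were normalized separately, and they set rich medium against minimal medium. The shares of library, scale and medium in the shift cannot be told apart.

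The mitochondrial rRNAs, which are not mRNAs and are no members, moved with the mRNAs. 15S rRNA stood at 4.00 FPKM in wild type cells in rich medium, 8.27 after heat stress, 22.8 in *mas5Δ* and 259 in *ssa2Δ*, and 21S rRNA at 3.08, 5.78, 11.7 and 143 FPKM. Their log2 ratios were 5.99 and 5.52 in *ssa2Δ*, 2.34 and 1.75 in *mas5Δ*, 1.05 and 0.91 in heat stress and 0.57 and 0.43 in *nmt1:hsf1*. Against wild type cells in minimal medium the heat stress ratios of both rRNAs were -0.03 and -0.07. Nuclear RNAs that also lack a regular poly(A) tail were examined beside them. The snRNAs were taken by an identifier beginning SPSNRNA., a class that is not confined to spliceosomal RNAs and includes *snu3* and *snu32*. They had median log2 ratios of 2.46 in *ssa2Δ* (5 of 5 with a ratio past 2-fold up), 1.44 in *mas5Δ* (4 of 6), 0.91 in heat stress (3 of 6) and -0.56 in *nmt1:hsf1* (1 of 6). Over all genes 10.9%, 7.25%, 14.1% and 27.1% were past 2-fold up in that order. Past 2-fold down there were 3 of 6 snRNAs in *nmt1:hsf1*, where 16.7% of all genes were, and 0 in the other comparisons. Among them *snu2* was at 1.01 FPKM in wild type cells in rich medium and 12.4 in *ssa2Δ* cells. The snoRNAs, at far higher levels, had median log2 ratios of 0.19, -0.13, -0.17 and -0.38 in the same order. In each comparison 19 of the 53 snoRNA genes were not tested by Cuffdiff, and many share a locus with other genes. The snRNAs reached at most 3.73 FPKM in wild type cells in rich medium, so both sets are uncertain as a measure. Past 2-fold up were 9 of 42, 4 of 43, 4 of 42 and 12 of 38, beside the same shares of all genes as above. Past 2-fold down were 7, 6, 9 and 7, beside 4.14%, 5.15%, 10.3% and 16.7% of all genes. Thus in the 3 comparisons from rich medium the snRNA medians were also above 0, by less than those of the mitochondrial mRNAs, while the snoRNA medians stayed close to 0. Single snRNA genes differed: *snu4* was at -0.34 in *mas5Δ*. In *ssa2Δ* *snu5* went from 0.297 FPKM to 0 and *snu1* from 0 to 2.84 FPKM, so neither had a ratio there. In *ssa2Δ* the snoRNAs spread both ways, with 21.4% past 2-fold up and 16.7% past 2-fold down. Of 47 other listed rRNA genes, 8, 8, 7 and 3 had a ratio in *ssa2Δ*, *mas5Δ*, heat stress and *nmt1:hsf1*. Their median log2 ratios were 0.73, 0.16, 1.28 and 1.90, with 4, 1, 4 and 2 past 2-fold up and 2, 2, 1 and 0 past 2-fold down. Of 25 mitochondrial tRNA genes, 1 had a ratio in *ssa2Δ* and in heat stress, and 0 in *mas5Δ* and *nmt1:hsf1*. The part of RNA selection in the higher mitochondrial values was not tested.

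**Figure D2:**
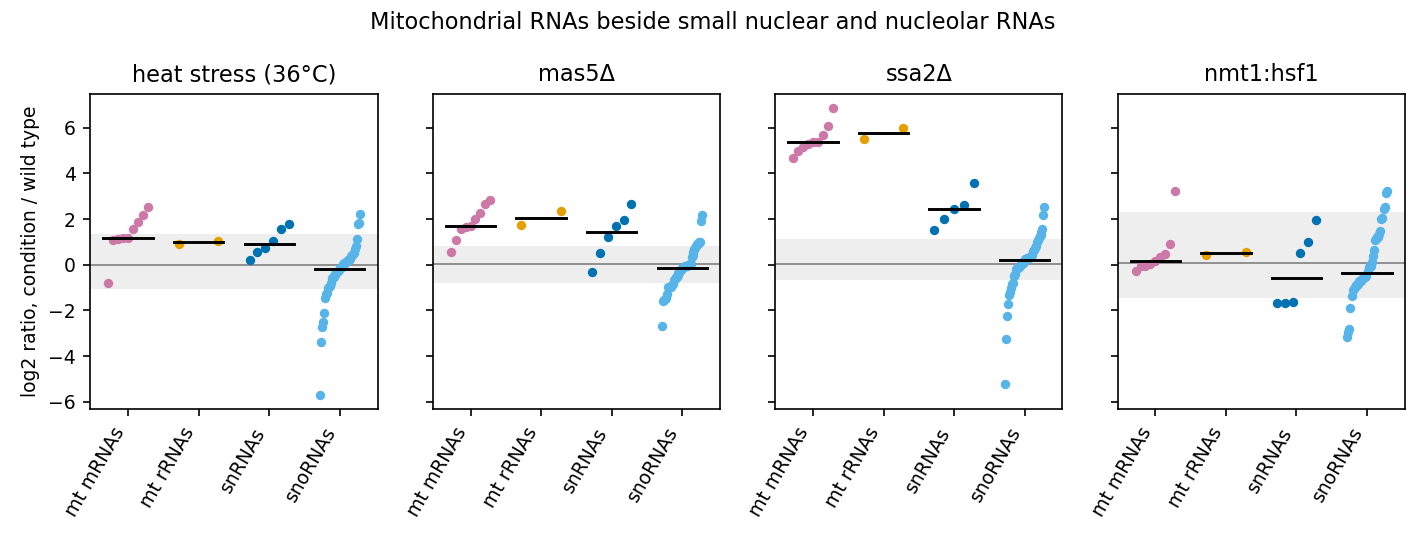
Log2 ratio of each condition to its wild type library for mitochondrial mRNAs, mitochondrial rRNAs, snRNAs and snoRNAs, 1 point per gene with a ratio and a black bar at the median. The grey band spans percentiles 10 to 90 of all genes and the grey line is their median; in *ssa2Δ* the mitochondrial medians are 5.38 and 5.76, above the snRNA median of 2.46.

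The nuclear members did not share this pattern. In wild type cells in rich medium the 35 subunit mRNAs lay between 167 FPKM (*atp7*) and 1000.3 FPKM (*cox7*), all at or above percentile 88.0 of the genes above 0, and the 13 assembly genes between 0.971 and 103 FPKM. In *ssa2Δ* cells the 48 ratios had a median of -0.03 on the log2 scale, and none of the 35 subunit genes was past 1.5-fold. Of 6420 genes with a ratio there, 1273 were past 1.5-fold up and 731 down. The lowest mitochondrial log2 ratio in *ssa2Δ* was 4.68, and the highest nuclear one was 1.36, that of *cox1102*, a gene at low FPKM. Over all genes percentile 90 was at 1.07, and the log2 ratios ran from -13.8 to 17.8, so the mitochondrial ratios were not the highest. No pseudocount was added, and such extremes can rest on values near 0. How many other genes at readable levels reached the mitochondrial ratios was not counted. The difference between the mitochondrial and nuclear medians was 5.40 in *ssa2Δ*, 1.57 in *mas5Δ*, 0.95 in heat stress and 1.11 in *nmt1:hsf1*. In the last of these the nuclear median was at -0.93 and the mitochondrial one at 0.18, so the nuclear median lay far from 0 and the mitochondrial one close to it.

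**Figure D3:**
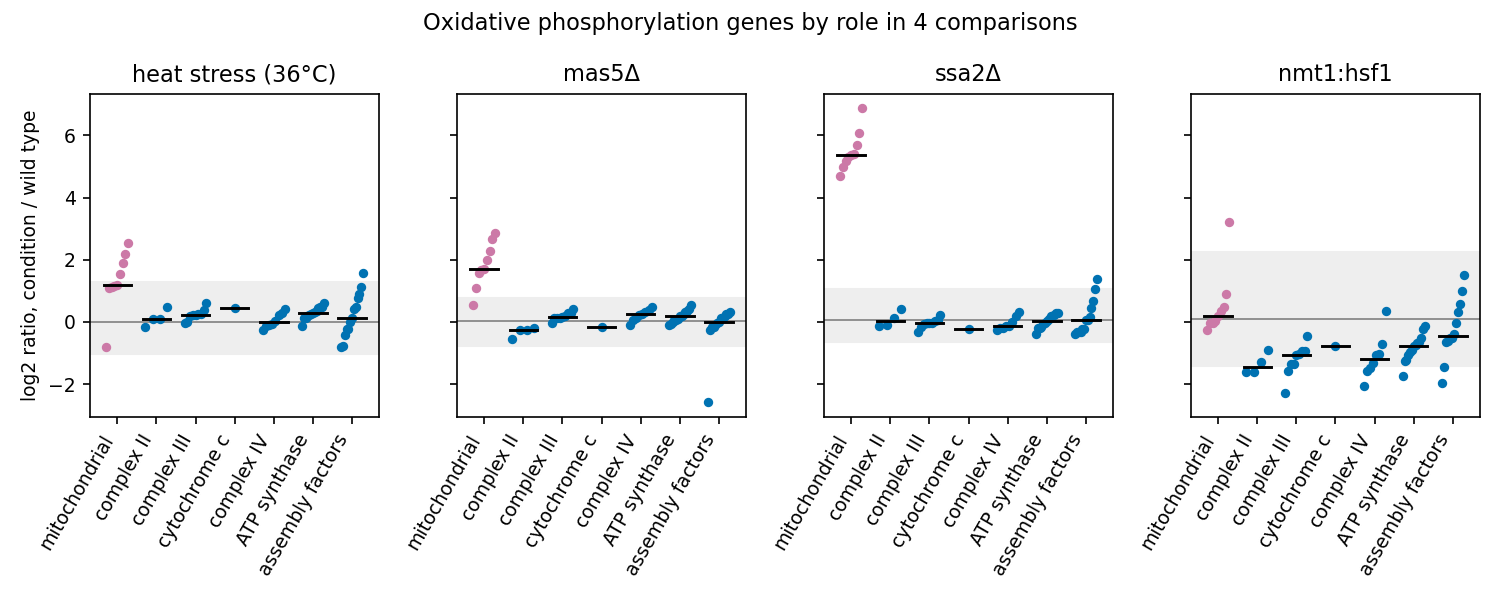
Log2 ratio of each condition to its wild type library for the mitochondrial mRNAs (pink) and the nuclear encoded members by role (blue), 1 point per gene and a black bar at the group median. The grey band spans percentiles 10 to 90 of all genes; the mitochondrial medians are 1.19, 1.71, 5.38 and 0.18 from left to right, and 34 of 35 nuclear subunit genes lie below 0 in *nmt1:hsf1*.

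In *nmt1:hsf1* cells, in which *hsf1* mRNA was at 922 FPKM against 93.4 in its wild type library, nuclear mRNAs of oxidative phosphorylation were lower. Of the 47 members with a ratio, 42 were lower and 21 were past 2-fold down, or 19 of the 35 subunit genes and 2 of the 12 assembly genes with a ratio. In the same comparison 16.7% of all genes were past 2-fold down, which is also the share to set beside the counts by complex below. The median log2 ratio of the subunit genes was -1.04, with percentiles 10 and 90 of all genes at -1.41 and 2.25. Summed over the 35 subunit genes the values were 18897 FPKM in wild type cells and 9602 in *nmt1:hsf1* cells, or 1.93% and 1.26% of all FPKM in the library. The subunit mRNAs were also a larger share in wild type cells in minimal medium than in rich medium, where they made up 1.23%. The share in *nmt1:hsf1* cells was thus close to the one in rich medium. How far such shares vary between cultures was not measured.

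**Figure D4:**
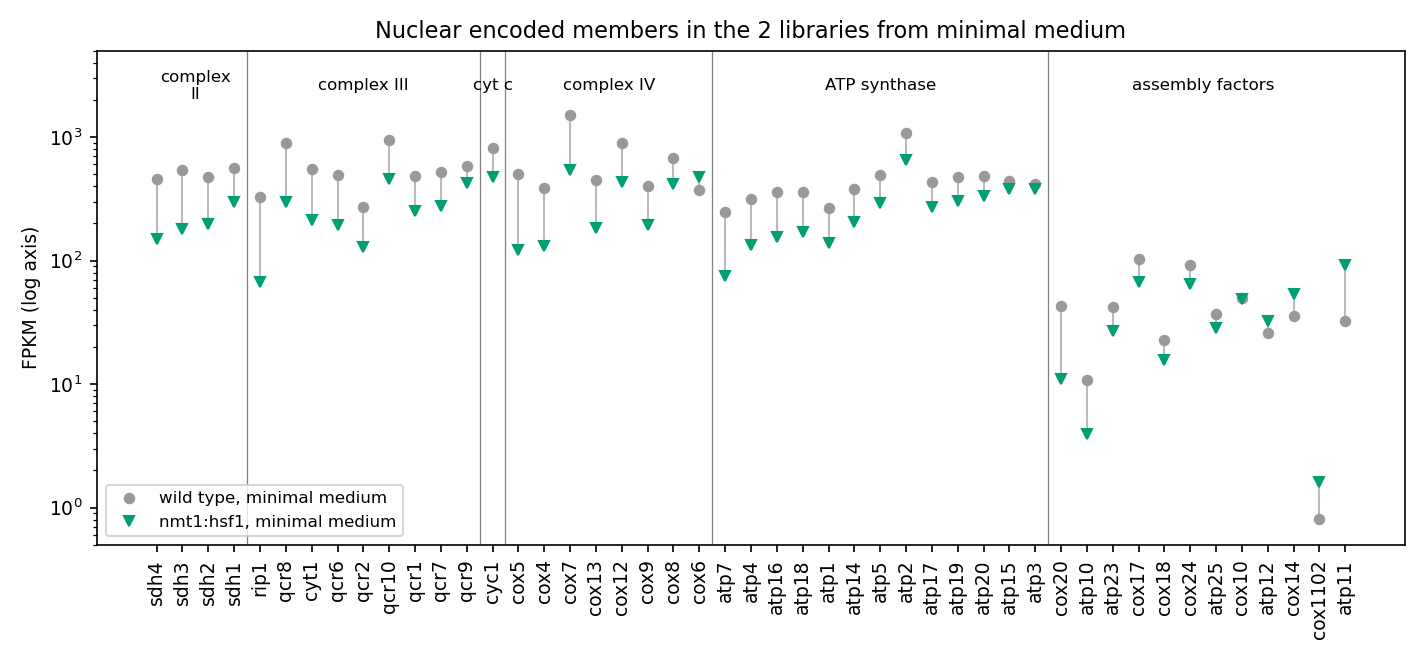
FPKM (log axis) of the nuclear encoded members in wild type (grey circles) and *nmt1:hsf1* cells (green triangles) in minimal medium, ordered by their ratio within each role. *cox1101* is left out because it is listed at 0 in *nmt1:hsf1*; the triangle lies under the circle for 34 of 35 subunit genes, *cox6* being the exception.

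Complex II oxidizes succinate and feeds electrons to ubiquinone. *sdh1*, the flavoprotein, stood at 344 FPKM in wild type cells in rich medium, 370 after heat stress, 323 in *mas5Δ*, 325 in *ssa2Δ*, 560 in wild type cells in minimal medium and 299 in *nmt1:hsf1*. *sdh2*, the iron-sulphur subunit, stood at 235, 328, 223, 319, 479 and 197 FPKM in the same order. For both the highest value was that of wild type cells in minimal medium. In *nmt1:hsf1* the log2 ratios were -0.91 for *sdh1*, -1.28 for *sdh2*, -1.60 for *sdh3* and -1.62 for *sdh4*, so 3 of 4 were past 2-fold down. *sdh3* encodes a membrane anchor, and the gene that the files call *sdh4* is named *tim18* in RefSeq. In *mas5Δ* cells all 4 were slightly lower, from -0.21 (*sdh3*) to -0.55 (*sdh4*), the only complex in which every subunit lay below 0 there. In heat stress and in *ssa2Δ* cells *sdh2* had the highest ratio of the complex (0.48 and 0.42), and the lowest were those of *sdh4* (-0.16) and *sdh3* (-0.13).

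Complex III passes electrons from ubiquinol to cytochrome *c*. *rip1*, its Rieske iron-sulphur subunit, stood at 199 FPKM in wild type cells in rich medium, 226 after heat stress, 220 in *mas5Δ*, 163 in *ssa2Δ*, 325 in wild type cells in minimal medium and 66.6 in *nmt1:hsf1*. The log2 ratio of -2.29 in *nmt1:hsf1* was the lowest of the 47 nuclear members with a ratio, and its rank there, percentile 63.4 of the genes above 0, was the lowest of the 35 subunit genes in any library. It shares its locus in the files with *ppa2*, at 114 and 104 FPKM in the same libraries. *cyt1*, the cytochrome *c1* subunit, stood at 344, 344, 427, 344, 553 and 215 FPKM in the order above and had a log2 ratio of -1.37 in *nmt1:hsf1*. The smaller subunits *qcr8*, *qcr6* and *qcr10* had log2 ratios of -1.58, -1.36 and -1.03 there, and the core subunit *qcr2* -1.07, giving 6 of 9 past 2-fold down. *qcr1*, which RefSeq describes as the beta subunit of the mitochondrial processing peptidase, was at -0.94, *qcr7* at -0.93 and *qcr9* at -0.45. In the other comparisons all 9 lay within 1.51-fold of wild type. The highest were *qcr9* in heat stress (0.59) and *ssa2Δ* (0.21) and *qcr7* in *mas5Δ* (0.41), and the lowest were *qcr1* in heat stress (-0.02) and *rip1* in *mas5Δ* (-0.03) and *ssa2Δ* (-0.31).

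*cyc1* encodes cytochrome *c*, the soluble carrier between complexes III and IV. It stood at 601 FPKM in wild type cells in rich medium, 823 after heat stress, 598 in *mas5Δ*, 527 in *ssa2Δ*, 815 in wild type cells in minimal medium and 476 in *nmt1:hsf1*. Its log2 ratios were 0.45, -0.18, -0.21 and -0.77 in heat stress, *mas5Δ*, *ssa2Δ* and *nmt1:hsf1*, none past 2-fold.

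The nuclear subunits of complex IV surround its mitochondrial core. *cox7* was the most abundant member mRNA in each of the 6 libraries except *nmt1:hsf1*, at 1000.3 FPKM in wild type cells in rich medium, 1219.7 after heat stress, 1467 in *mas5Δ*, 935 in *ssa2Δ*, 1519 in wild type cells in minimal medium and 538 in *nmt1:hsf1*, where *atp2* was higher at 655. *cox5* stood at 340, 283, 418, 316, 499 and 121 FPKM in the same order. Its log2 ratio of -2.04 in *nmt1:hsf1* was the second lowest of the nuclear members with a ratio, and its locus is shared with *ctp1* and with non-coding RNAs. There followed *cox4* (-1.57), *cox7* (-1.50), *cox13* (-1.31), *cox12* (-1.06) and *cox9* (-1.04), so 6 of 8 were past 2-fold down. *cox8* was at -0.71. *cox6* went the other way, from 372 to 478 FPKM (0.36), and was the only one of 35 subunit genes with a higher value in *nmt1:hsf1* cells. It is alone in its locus. Elsewhere no complex IV gene was past 1.5-fold, with extremes of *cox13* (0.41) and *cox5* (-0.26) in heat stress, *cox13* (0.47) and *cox6* (-0.10) in *mas5Δ*, and *cox12* (0.30) and *cox4* (-0.26) in *ssa2Δ*. Of 6426, 6465 and 6420 genes with a ratio in that order, 1534, 937 and 1273 were past 1.5-fold up and 1364, 926 and 731 down.

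ATP synthase has a catalytic F1 part and a membrane part with stalks that hold it. *atp1* and *atp2*, the alpha and beta subunits of F1, had log2 ratios of -0.96 and -0.73 in *nmt1:hsf1*. *atp2* stood at 683 FPKM in wild type cells in rich medium, 878 after heat stress, 794 in *mas5Δ*, 788 in *ssa2Δ*, 1087 in wild type cells in minimal medium and 655 in *nmt1:hsf1*. *atp1* stood at 186, 201, 199, 164, 269 and 139 FPKM in that order. All 13 nuclear subunit genes were lower in *nmt1:hsf1* cells and 4 were past 2-fold down: *atp7* (-1.74) and *atp4* (-1.25), which belong to the peripheral stalk, *atp16* (-1.22), the delta subunit of the central stalk, and *atp18* (-1.05). *atp7* stood at 167, 231, 225, 209, 249 and 74.5 FPKM over the libraries. It shares its locus with the non-coding RNA *prl25*, which was at 70.0 and 26.3 FPKM in wild type and *nmt1:hsf1* cells, and without strand information reads of the pair cannot be told apart. The least lowered was *atp3* (-0.14), the gamma subunit. In heat stress 12 of 13 were higher, up to 0.61 for *atp5*, and the lowest was *atp20* (-0.12). *atp5* and *atp20* were also the highest and lowest in *mas5Δ* (0.54 and -0.10), and *atp7* and *atp20* in *ssa2Δ* (0.30 and -0.39).

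The assembly genes were the most variable nuclear group. *atp11*, which encodes a chaperone for the assembly of F1, stood at 31.6 FPKM in wild type cells in rich medium, 94.5 after heat stress, 31.8 in *mas5Δ*, 67.3 in *ssa2Δ*, 32.3 in wild type cells in minimal medium and 92.1 in *nmt1:hsf1*. The libraries of heat stress, *ssa2Δ* and *nmt1:hsf1* lay above their own wild type libraries, while *mas5Δ* lay below the wild type value of its own table, 35.5 FPKM. Its log2 ratios were 1.58 in heat stress, 1.07 in *ssa2Δ*, 1.51 in *nmt1:hsf1* and -0.16 in *mas5Δ*. It was the only nuclear member above 10 FPKM that was past 2-fold up in any comparison. The other gene in its locus, SPAC3A12.13c, had log2 ratios of -0.78, -0.53, 0.84 and -0.40 in the same order, so its ratio had the sign of that of *atp11* in *nmt1:hsf1* and *mas5Δ* and the opposite sign in heat stress and *ssa2Δ*. Against the background, 2 of 48 nuclear members were past 2-fold up in heat stress (14.1% of all genes), 2 in *ssa2Δ* (10.9%), 1 in *nmt1:hsf1* (27.1%) and 0 in *mas5Δ* (7.25%). Past 2-fold down there were 0 in heat stress (10.3% of all genes), 0 in *ssa2Δ* (4.14%) and 1 in *mas5Δ* (5.15%).

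*cox20* and *atp10* were the assembly genes past 2-fold down in *nmt1:hsf1*. *cox20*, known in budding yeast for the maturation of Cox2, stood at 45.8 FPKM in wild type cells in rich medium, 33.9 after heat stress, 46.2 in *mas5Δ*, 49.1 in *ssa2Δ*, 42.9 in wild type cells in minimal medium and 10.9 in *nmt1:hsf1* (log2 ratio -1.97). *atp10*, known there for the assembly of Atp6, was at 10.7 FPKM in wild type cells in minimal medium and 3.93 in *nmt1:hsf1* (-1.45), and had the highest assembly ratio in *mas5Δ* (0.33). In heat stress the lowest was *cox24* (-0.82), a protein of the mitochondrial ribosome in RefSeq, and in *ssa2Δ* it was *atp25* (-0.39). *cox1101* and *cox1102* are near-identical copies at about 1 FPKM, between which reads may be split, and their ratios are uncertain. *cox1101* was at 1.15 FPKM in wild type cells in its table and 0.193 in *mas5Δ* cells (-2.58), and it was listed at 0 in *nmt1:hsf1*. *cox1102* was at 0.971 FPKM in wild type cells in rich medium, 2.11 after heat stress (1.12) and 2.54 in *ssa2Δ* cells (1.36).

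The bases before the RefSeq start of each nuclear member were searched for 2 motifs on both strands. CCAAT, read as ATTGG on the other strand, is bound by the Php complex, a known regulator of respiratory genes in yeasts, and GAANNTTC, which is the same on both strands, is the shortest pair of inverted units of a heat shock element. Within 250 bases CCAAT occurred for 27 of 48 members (56.25%) and 1807 of 5112 protein-coding genes (35.35%), and GAANNTTC for 7 of 48 (14.6%) and 485 of 5112 (9.49%). A match is a string of letters and not a measured site. In *nmt1:hsf1* the median log2 ratio was -0.99 for the members with CCAAT and -0.71 for those without, but -1.07 and -0.9998 among the subunit genes and -0.38 and -0.52 among the assembly genes, so no common direction was seen within the classes. The members with GAANNTTC were *atp1*, *atp3*, *atp11*, *atp20*, *cox13* and the *cox1101* and *cox1102* pair. In *nmt1:hsf1* the subunit genes among them were lower: *atp1* (-0.96), *atp3* (-0.14), *atp20* (-0.52) and *cox13* (-1.31). *atp11* (1.51) and *cox1102* (0.99) were higher, and *cox1101* was listed at 0. A link between the motif and the ratios was not tested. 3 of these stretches are shown, *cyc1* for its 3 matches to CCAAT, *cox5* as a gene with a low ratio in *nmt1:hsf1* and 2 matches, and *atp11* as the gene past 2-fold up in 3 comparisons, with GAANNTTC. Capitals mark the motif on either strand, and each stretch is on the gene's strand. They lie at chrIII:1714372-1714621 (plus strand), chrIII:1357544-1357793 (plus strand) and chrI:1440754-1441003 (plus strand) of ASM294v3, in that order:
cyc1: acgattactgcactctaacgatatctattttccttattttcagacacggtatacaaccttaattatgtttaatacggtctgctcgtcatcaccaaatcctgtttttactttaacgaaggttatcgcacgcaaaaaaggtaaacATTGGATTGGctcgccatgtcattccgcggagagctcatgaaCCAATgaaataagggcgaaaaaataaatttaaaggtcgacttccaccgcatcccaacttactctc
cox5: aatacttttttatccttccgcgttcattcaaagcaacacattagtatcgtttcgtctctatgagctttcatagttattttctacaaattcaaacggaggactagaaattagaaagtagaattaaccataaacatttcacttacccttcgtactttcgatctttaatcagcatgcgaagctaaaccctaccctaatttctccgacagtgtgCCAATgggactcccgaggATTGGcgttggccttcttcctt
atp11: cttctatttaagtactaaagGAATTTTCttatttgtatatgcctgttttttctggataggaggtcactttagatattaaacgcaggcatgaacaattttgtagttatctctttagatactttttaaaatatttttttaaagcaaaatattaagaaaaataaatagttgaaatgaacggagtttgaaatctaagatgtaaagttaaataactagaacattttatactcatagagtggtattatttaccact

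Other genes of mitochondrial energy metabolism and gene expression were described by lists. Of 11 genes of the tricarboxylic acid cycle, which supplies NADH and succinate, all had lower values in *nmt1:hsf1* (median log2 ratio -1.22). Past 2-fold down were 6, beside 16.7% of all genes, among them *kgd2* (-1.80), *cit1*, the citrate synthase (-1.38), and *fum1* (-1.34). In heat stress their median was 0.65. Past 2-fold up there were 2 of 11, *mdh1* (SPCC306.08c, 2.08) and *cit1* (1.63), beside 14.1% of all genes. Of 16 genes listed by name for electron entry and ubiquinone synthesis, 3 (18.75%) were past 2-fold down in *nmt1:hsf1*, near the share of all genes (16.7%). *dld1* (-1.64) is among these 3 only through its name, and it is also counted in the list of the tricarboxylic acid cycle. The median of the 16 genes was 0.03, with the ubiquinone side chain gene *dlp1* the lowest (-3.65). SPAC3A11.07, an NADH dehydrogenase, was at -0.91 there. Of 25 genes of mitochondrial gene expression, 8 were past 2-fold up and 1 past 2-fold down in *nmt1:hsf1*, with a median of 0.60, where all genes had 27.1% and 16.7%. *rpo41*, the mitochondrial RNA polymerase, went from 14.9 to 41.4 FPKM (1.48) and *ppr3* from 24.4 to 133 FPKM (2.45). In *ssa2Δ*, where mitochondrial mRNAs were highest, the median of this list was -0.05 and *rpo41* was at -0.29. There 1 gene of the 25, *ppr8*, was past 2-fold up (1.55), beside 10.9% of all genes. Of the Php genes, *php2* was at 1.00 in *ssa2Δ* and 0.66 in *nmt1:hsf1*, and *php4*, its repressor subunit, was at -1.07 in heat stress and -0.03 in *nmt1:hsf1*. Of 13 further genes of the complexes whose names lie outside the pattern, 3 were past 2-fold down in *nmt1:hsf1* (16.7% of all genes). Among them *anc1*, the ADP/ATP carrier, went from 858 to 218 FPKM (-1.98). Past 2-fold up were 2 (27.1% of all genes), including *shy1*, an assembly factor of complex IV, at 16.8 and 44.3 FPKM.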

How the data were processed

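RNA was selected on poly-T beads, and single reads of 50 bases were sequenced per the study's methods. The authors mapped the reads with TopHat and deposited FPKM values from Cuffdiff, 1 table per comparison; versions, genome build and strand use are not given in the sources used here. The wild type column was identified in 3 tables as the one that all share, and in the *nmt1:hsf1* table by its analogous layout. The authors' own comparison columns (fold change, statistic, p-value, q-value, significance) were not used, and 0 sample columns were left unmapped.

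Log2 ratios were formed where both FPKM values were above 0, without a pseudocount, in Python 3.11.15 with numpy 2.4.6 and pandas 2.3.3, and were tested on simulated data. Lists are described by counts past 2-fold and medians beside all genes, without tests. Members and lists were chosen with earlier results of these data known. Named are all mitochondrial mRNAs, nuclear members past 2-fold anywhere, the highest and lowest of each role in each comparison, and *cyc1*, *cyt1*, *rip1*, *sdh1*, *atp1* and *atp2*; genes of the lists, neighbours and RNAs without poly(A) tails were named after their values were seen. From the lists *par1* and *lsc1* were left out, since in the files these names belong to a phosphatase subunit and a cyclin, and ppr9, rmd9 and pet100 were not matched. In the files 28 of 48 nuclear members share a locus with other genes, between which reads cannot be split by strand. All 48 nuclear identifiers matched RefSeq ASM294v3; of 2231 nuclear genes alone in their locus, 2222 had at least 1 end in common with RefSeq, and mitochondrial coordinates differed by up to 14 bases. Sequences are from RefSeq. Alternatives were a pseudocount of 1 FPKM, centring on the median, a minimum mean of 10 FPKM, genes tested by Cuffdiff only, members alone in their locus, members without assembly factors, mitochondrial subunits only, means, a 1.5-fold threshold, members by RefSeq symbol and another reference library.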

Additional observations from a re-analysis of the deposited data

How the results depend on the processing

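No paired analysis was possible because each condition has 1 library and the labels give no shared replicate numbers. No result with a median past 2-fold changed its direction under any alternative run. Adding 1 FPKM, which shrinks ratios of low values by construction, moved the mitochondrial median to 0.52 (heat stress), 0.96 (*mas5Δ*) and 3.82 (*ssa2Δ*), and its difference from the nuclear median to 0.29, 0.84 and 3.84. With wild type cells in minimal medium as reference (chosen after seeing the data) the ratios cross separately normalized tables and also media. The mitochondrial medians were then 1.07 in *mas5Δ* and 4.78 in *ssa2Δ*. The nuclear medians were -0.42 in heat stress, -0.29 in *mas5Δ* (0.13 before, so it changed sign, as in heat stress) and -0.62 in *ssa2Δ*, and 3 nuclear members were past 2-fold down in *mas5Δ*. Counts of nuclear members past 2-fold are small outside *nmt1:hsf1*, and *cox1101* and *cox1102* make up part of them. Past 2-fold up in heat stress there was 1 gene after adding 1 FPKM, with a mean of at least 10 FPKM or among members alone in their locus, and 0 without assembly factors. Past 2-fold up in *ssa2Δ* the counts under these 4 settings were likewise 1, 1, 1 and 0, and past 2-fold down in *mas5Δ* 0 in each. At 1.5-fold 2 were down and 6 up in heat stress, where 1364 of 6426 genes were down and 1534 up. In *nmt1:hsf1* 34 were down and 3 up at 1.5-fold, where 1747 of 6335 genes were down and 2302 up. In *nmt1:hsf1* the 20 members alone in their locus held 9 past 2-fold down and 0 up, fewer because fewer genes were counted, 0 were up without assembly factors, and 3 were up when the 55 members by RefSeq symbol were counted. In heat stress and *mas5Δ* no mitochondrial mRNA reached a mean of 10 FPKM, so no median exists there. Depth is unknown, so ratios of mitochondrial mRNAs near or under 1 FPKM carry an unmeasured counting error.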
